A study of Mus musculus with 12 samples.

Results

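The wild-type mouse lens transcriptome at P7 (an age of 7 days) is described here from the 3 wild-type libraries of a series of 12 lens RNA-seq libraries. The members were the libraries labelled wild-type, WT replicates 1 to 3, and repeated entries of a gene identifier were counted once. Wild-type mice were of the C57BL/6J strain, and each library was described as prepared from 4 male and 4 female whole lenses, which hold both epithelium and fiber cells. The paper states that its other mouse strains were also kept on the C57BL/6J background. The other genotypes, 3 libraries each and also at P7, were *Trpm3*-KO (the gene interrupted by an IRES-LacZ-neo cassette through homologous recombination), *Trpm3*-I/M (heterozygous for the p.I65M substitution knocked in with CRISPR) and *Trpm3*-M/M (homozygous for it). They were used only to see where the wild-type lens differed. Between 56162182 and 57481006 reads were counted on genes in the wild-type libraries, over 55487 gene identifiers.

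The lens is a transparent tissue made of a single layer of epithelial cells over a mass of elongated fiber cells, enclosed in a basement membrane called the capsule. Epithelial cells divide and, near the equator, turn into fiber cells, which fill with crystallins, the soluble proteins that give the lens its refractive power, and then lose their nuclei and other organelles. Alpha crystallins are small heat shock proteins, whereas beta and gamma crystallins form a separate superfamily of their own. In RNA from whole lenses, fewer cells of a type and less RNA per cell cannot be told apart.

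Crystallin genes took most of the counted reads. The 16 crystallin genes accounted for 61.4%, 63.9% and 61.0% of the reads in wild-type replicates 1 to 3, or 62.1% ± 1.56 (SD, n = 3). Gamma crystallins were the most abundant class with 26.7% ± 1.25 of all reads, followed by beta crystallins with 18.5% ± 0.432 and alpha crystallins with 16.9% ± 0.159 (SD, n = 3 each). The ranges of the gamma and beta classes did not overlap, with 25.6% as the lowest gamma share and 18.8% as the highest beta share. The alpha and beta classes lay closer together, between 16.8% and 17.1% for alpha and between 18.0% and 18.8% for beta. Of the crystallin reads alone, 42.9% were gamma, 29.8% beta and 27.3% alpha. Because longer transcripts give more reads, the shares were also computed from counts per kilobase of merged exons (all annotated exons of a gene joined). On that scale the crystallins took 81.0% ± 0.876 of the total (SD, n = 3), with 50.4% for gamma, 18.6% for beta and 12% for alpha. Genes that share only the crystallin name or fold were rare: 8 such genes, among them the quinone reductase *Cryz*, summed to 0.00331% ± 0.000218 of the reads (SD, n = 3).

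*Cryaa*, encoding alpha A-crystallin, had the most reads of any gene. Its level was 149370, 149017 and 148373 CPM (counts per 1000000 reads counted on genes) in replicates 1 to 3, which is 14.9% of each total to within 0.0505 percentage points (SD, n = 3). The 3 libraries were nearly equal. *Cryaa* (ENSMUSG00000024041) lies on the forward strand of chr17:31677807-31681733 in GRCm38. *Cryab*, its partner in alpha crystallin complexes, had 20475, 21515 and 19128 CPM. Both alpha genes were thus among the abundant genes of the lens.

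Levels of different crystallins were compared per kilobase of merged exons. *Cryge* led with 96066 ± 5610 CPM per kilobase, followed by *Cryga* with 87903 ± 1790, *Cryaa* with 71734 ± 243 and *Crygb* with 62115 ± 2370 (SD, n = 3 each). None of these neighbours overlapped between replicates. *Crygc* (39696 ± 3170 CPM per kilobase) and *Crybb1* (38121 ± 684) did overlap and are not ordered by these data. Below them came *Crygd* (32521 CPM per kilobase), *Cryba1* (30620), *Crygf* (26544), *Cryba4* (20386) and *Crybb3* (19489), each clear of the next. *Cryab* (13774 CPM per kilobase), *Cryba2* (13510) and *Crygs* (12004) formed a run in which each neighbour overlapped the next. *Crybb2* followed with 10081 ± 824 CPM per kilobase, and *Crygn*, the lowest crystallin, with 2439 ± 71.6 (SD, n = 3 each). The order depended on the length used. With the longest annotated transcript in place of merged exons, *Cryaa* came first with 117630 CPM per kilobase, ahead of *Cryge* with 100660, and the replicates of the pair did not overlap on that scale either. *Crygd*, with 53066 CPM per kilobase on that scale, was then clear above *Crybb1* and *Crygc*. *Crybb3* (32041) was above *Crygf* (26544), and *Crybb2* (22388) was above *Cryab* (18238), *Cryba2* (17461) and *Crygs* (12004).

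**Figure D1:**
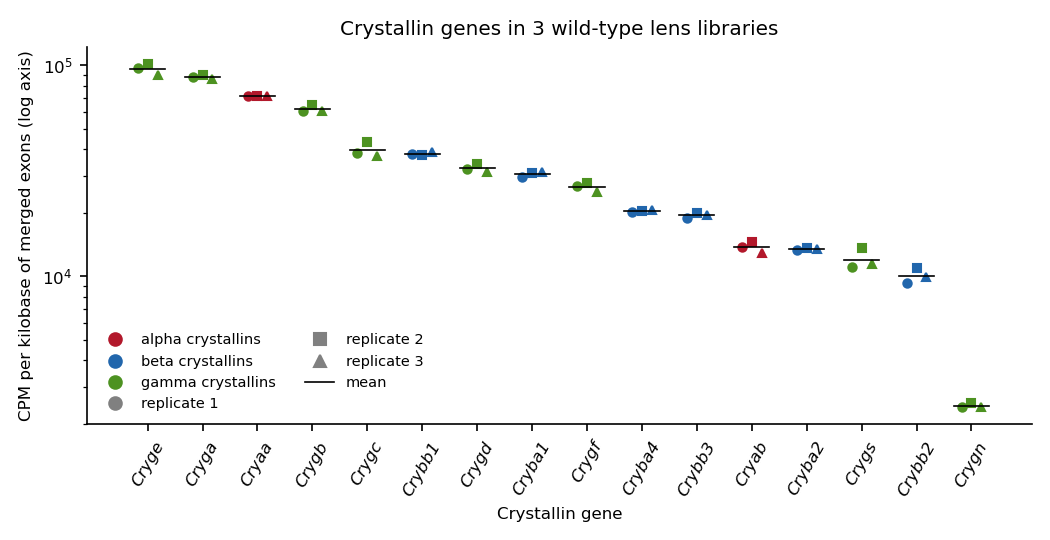
Level of each of the 16 crystallin genes in the 3 wild-type libraries, in CPM per kilobase of merged exons on a log axis. Symbols mark replicates 1 to 3, colours mark the alpha, beta and gamma classes, and bars are means. The genes span from 96066 (*Cryge*) to 2439 (*Crygn*) CPM per kilobase, and replicates lie close together compared with that span.

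The levels of single gamma crystallins are less certain than that of their class. *Cryga* to *Cryge* lie together on the reverse strand of chromosome 1, *Crygf* lies apart from them on the forward strand, and all 6 have related sequences, so reads can be split between them by the counting. Of the 31-base words in *Cryge* transcripts, 41.9% also occurred in *Crygf*, and 47.2% of those in *Crygf* occurred in *Cryge*. *Crygb* shared 31.6% of its words with *Crygc*, and *Crygd* shared 25.1% with *Cryge*. Of the words in *Cryga*, 44.0% also occurred in the overlapping gene model *Gm28845*. No such sharing was found for *Crygs* or *Crygn*.

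The stretches just upstream of the gamma crystallin starts are shown because these genes were abundant together and carry common sequence there. Each line gives the last 90 bases before the RefSeq start on the sense strand (GRCm38.p6), with TATATA in capitals, as are TTTGTG and, where present, TATAAA. *Cryaa* and *Crybb1* are given for comparison.
Cryga: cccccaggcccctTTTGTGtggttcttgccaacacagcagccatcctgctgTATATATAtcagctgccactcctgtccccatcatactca
Crygb: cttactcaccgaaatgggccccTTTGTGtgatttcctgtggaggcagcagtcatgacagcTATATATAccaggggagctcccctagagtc
Crygc: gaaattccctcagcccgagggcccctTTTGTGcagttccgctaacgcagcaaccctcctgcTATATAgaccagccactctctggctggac
Crygd: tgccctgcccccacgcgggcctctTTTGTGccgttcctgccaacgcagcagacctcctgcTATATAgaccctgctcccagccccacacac
Cryge: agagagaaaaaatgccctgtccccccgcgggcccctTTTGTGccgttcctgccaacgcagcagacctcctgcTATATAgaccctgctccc
Crygf: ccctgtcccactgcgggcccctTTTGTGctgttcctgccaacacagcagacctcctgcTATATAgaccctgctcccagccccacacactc
Cryaa: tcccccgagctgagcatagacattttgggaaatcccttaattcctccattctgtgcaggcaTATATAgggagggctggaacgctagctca
Crybb1: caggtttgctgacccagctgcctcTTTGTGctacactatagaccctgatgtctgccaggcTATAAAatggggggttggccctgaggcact

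The positions are chr1:65103364-65103453, chr1:65082291-65082380, chr1:65073533-65073622, chr1:65063441-65063530 and chr1:65051164-65051253 on the reverse strand for *Cryga* to *Cryge*. They are chr1:65926432-65926521, chr17:31677841-31677930 and chr5:112255730-112255819 on the forward strand for *Crygf*, *Cryaa* and *Crybb1*. On the sense strand of these 90 bases, TATATA was present in 6 of 6 promoters of *Cryga* to *Crygf* and in 8 of 15 crystallin promoters, against 2.08% of 32851 RefSeq promoters. TTTGTG was present in 6 of 6 and in 7 of 15, against 2.67% of all promoters. Both motifs were chosen after these sequences were seen. TATAAA, the usual form of the TATA box, was present in 0 of 6 and 3 of 15, against 3.57% of all promoters. TGCTGA, the core of the site bound by Maf factors, was searched on both strands of 250 bases and was present in 2 of 6 and 10 of 15, against 16.1% of all promoters. In *Cryga* and *Crygb* the capitals hold overlapping copies of TATATA. *Cryab* is not among the promoters searched.

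The counts were concentrated in very few genes because of the crystallins. In each wild-type library, 9 genes took 50% of all reads, and the 10 most abundant genes took 53.9% ± 1.22 (SD, n = 3). With the crystallins left out of the total, 464, 437 and 448 genes were needed to reach 50% in replicates 1 to 3, and the 10 most abundant took 11.6% ± 0.323 (SD, n = 3). The top 100 genes took 73.1% of all reads and 30.8% of the non-crystallin reads. The number of genes at or above 5 CPM in every wild-type library was 7427 when CPM was computed over all genes, and 9772 when it was computed over the non-crystallin total, although the counts were the same. At least 1 count was present for 18638 genes in every wild-type library.

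**Figure D2:**
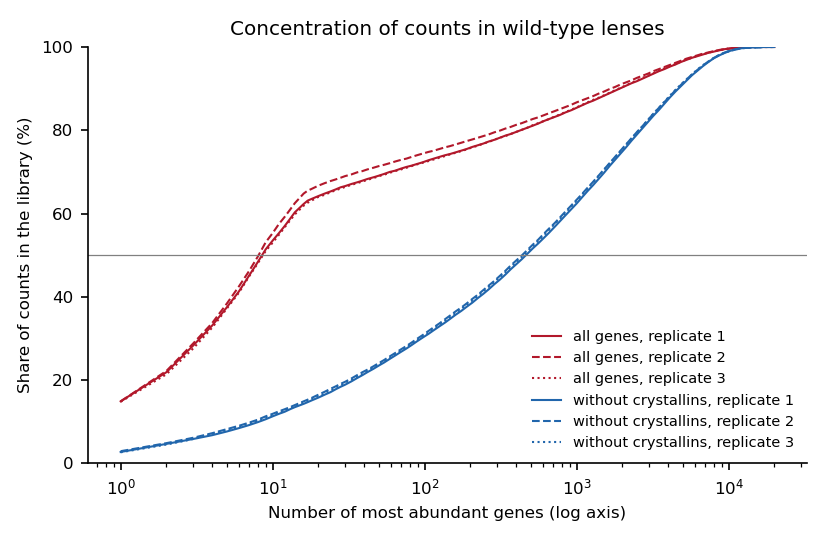
Share of counted reads (%) taken by the most abundant genes, against the number of genes on a log axis, for all genes (red) and without the crystallins (blue). Line styles mark wild-type replicates 1 to 3, and the horizontal line is at 50%. The red curves cross it at 9 genes, and the blue curves cross it between 437 and 464 genes.

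Outside the crystallins, fiber cell structural genes led. *Bfsp1*, which encodes filensin of the beaded filament (the intermediate filament particular to lens fibers), had 10573, 10563 and 10380 CPM. *Bfsp2*, which encodes phakinin, the other beaded filament protein, had 4536, 4668 and 4600 CPM. *Mip*, the water channel aquaporin-0 of fiber membranes, had 7464, 6967 and 7234 CPM. Per kilobase of merged exons their order was *Bfsp1* (4396 ± 45.5 CPM per kilobase), *Mip* (3368 ± 116) and *Bfsp2* (2710 ± 38.8; SD, n = 3 each).

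Other abundant entries were a ribosomal RNA, *CT010467.1*, with 3121, 3953 and 5195 CPM, and *Cd24a*, a cell surface glycoprotein, with 3540, 3531 and 3680. *Lim2*, a fiber membrane protein, is listed under 2 identifiers, with 2720, 2668 and 2895 CPM for ENSMUSG00000118560, which has no length here, and 76.6 CPM on average for the other. *Tdrd7*, a granule protein needed for a clear lens, had 2188, 2115 and 2225 CPM. In *Tdrd7* the replicates were within a few percent of each other, whereas in *CT010467.1* the highest library was well above the lowest.

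The list of 21 lens fiber genes took 3.65% ± 0.0743 of all reads and 9.66% ± 0.275 of the non-crystallin reads (SD, n = 3 each), the largest non-crystallin share of the lists examined. Every one of them had a count in every library, and 20 reached 5 CPM in all 3. *Grifin*, a galectin-related protein of fibers, had 749 ± 36.5 CPM per kilobase, above *Tdrd7* (550 ± 14.1) and *Gja3* (326 ± 19.9), which encodes a gap junction protein of fibers (SD, n = 3 each).

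**Figure D3:**
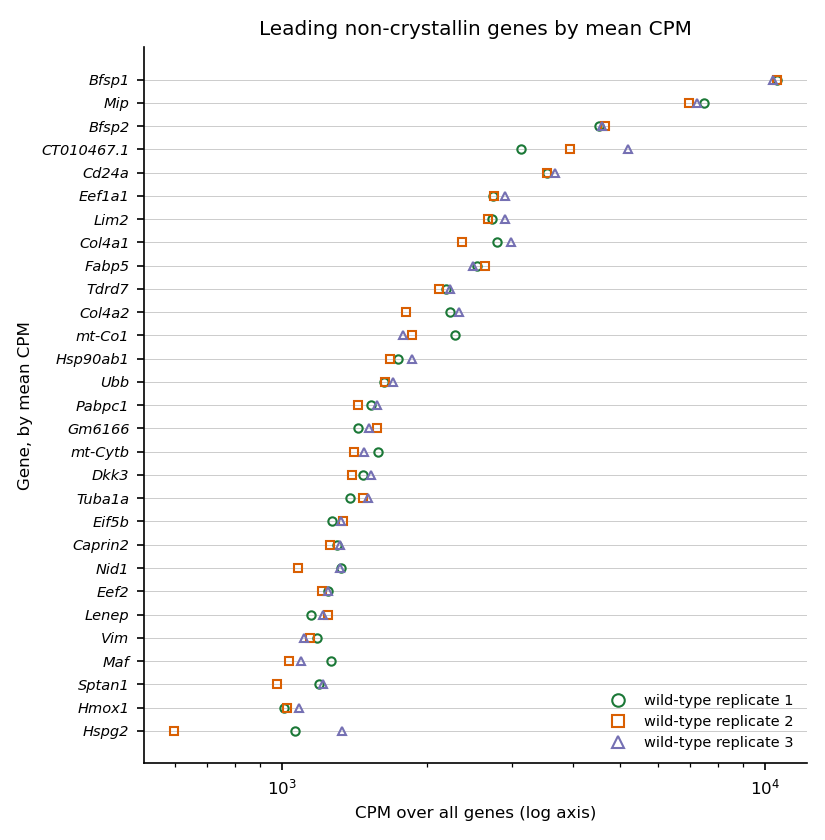
CPM over all genes, on a log axis, of leading non-crystallin genes in wild-type lenses, ordered by their mean. Symbols mark replicates 1 to 3. *Bfsp1*, *Mip* and *Bfsp2* lead, and *CT010467.1* and *Hspg2* show the widest spread among replicates.

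Membrane skeleton and intermediate filament genes, 22 in all with *Bfsp1* and *Bfsp2* among them, took 5.80% ± 0.155 of the non-crystallin reads (SD, n = 3). *Vim*, which encodes vimentin, had 242 ± 7.51 CPM per kilobase. The alpha spectrin gene *Sptan1* had 84.5 ± 9.94 CPM per kilobase, and *Ezr*, a linker of actin to the membrane, had 78.3 ± 6.27 (SD, n = 3 each). Actins and tubulins added 1.14% ± 0.0274 of the non-crystallin reads, led by *Tuba1a* at 1385, 1469 and 1510 CPM and by *Actb* at 938, 828 and 798 CPM. Of the words in *Tuba1a*, 53.4% also occurred in *Tuba1b*, so the split between these tubulins is uncertain.

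The capsule list, 17 genes of the basement membrane, took 2.47% ± 0.249 of the non-crystallin reads (SD, n = 3). *Col4a1* had 2787, 2360 and 2985 CPM, and *Col4a2* had 2226, 1808 and 2329 CPM. These genes encode the main chains of type IV collagen. *Nid1*, the linker protein nidogen, had 1324, 1081 and 1319 CPM, and *Sparc*, a collagen-binding matrix protein, had 989, 923 and 1037. *Hspg2*, which encodes the large proteoglycan perlecan, varied most, with 1065, 599 and 1330 CPM. Replicate 2 was the lowest of the 3 libraries in all 5 of these genes, as it was for 71.1% of 7411 non-crystallin genes by CPM.

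Protein synthesis genes made up the next block. The 86 cytosolic ribosomal protein genes took 5.08% ± 0.218 of the non-crystallin reads, or 8.83% ± 0.282 per kilobase, since they are short (SD, n = 3 each). *Rplp1* (816 ± 33.8 CPM per kilobase), *Rpl41* (650 ± 17.1) and *Rplp0* (570 ± 13.8) led. Of the 86, 83 reached 5 CPM in every wild-type library and 2 had no count in any. The 71 translation factors took 2.68% ± 0.0577 of the non-crystallin reads (SD, n = 3). *Eef1a1*, the elongation factor that brings tRNA to the ribosome, had 2736, 2745 and 2894 CPM, and *Eef2*, which moves the ribosome along, had 1244, 1211 and 1249. *Eif5b*, which joins the ribosomal subunits, had 1273, 1340 and 1323 CPM. *Pabpc1*, the poly(A)-binding protein, had 1527, 1436 and 1573 CPM.

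Genes of the energy supply took smaller shares of the reads. The mitochondrial genome took 2.44% ± 0.149 of the non-crystallin reads, or 6.96% ± 0.478 per kilobase (SD, n = 3 each). On the latter scale it was above the translation factors, at 2.11%. Of its 37 genes, 15 reached 5 CPM in every library. *mt-Co1*, a subunit of cytochrome c oxidase, had 2283, 1860 and 1778 CPM, and *mt-Cytb*, which encodes cytochrome b, had 1581, 1408 and 1482. *mt-Atp6* had 1044 ± 77.7 CPM per kilobase (SD, n = 3). Nuclear genes of oxidative phosphorylation took 1.21% ± 0.0413, led per kilobase by *Ndufa1* (233 CPM per kilobase), *Cox8a* (197) and *Cox6a1* (165). The 21 glycolysis genes took 0.698% ± 0.0258, led by the pyruvate kinase gene *Pkm* (127 ± 6.98 CPM per kilobase), *Aldoc* (102 ± 1.59), an aldolase, and *Gapdh* (85.7 ± 0.999; SD, n = 3 each).

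Genes that keep proteins folded, remove them or guard against oxidation were also prominent. Chaperones took 1.86% ± 0.0759 of the non-crystallin reads over 82 genes (SD, n = 3). *Hspb1*, a small heat shock protein like the alpha crystallins, had 753 ± 35.1 CPM per kilobase, and *Hsp90ab1* had 586 ± 31.4. Ubiquitin and proteasome genes took 1.10% ± 0.0262, with the ubiquitin gene *Ubb* at 1627, 1639 and 1697 CPM. Redox and glutathione genes took 0.753% ± 0.0201. Their leading member, the heme-degrading enzyme gene *Hmox1*, had 1010, 1025 and 1088 CPM, and *Gstm1*, a glutathione transferase, had 225, 205 and 237. The iron storage genes *Ftl1* and *Fth1* together took 0.327% ± 0.00904, with 694 ± 29.3 CPM per kilobase for *Ftl1* and 88.4 ± 2.04 for *Fth1* (SD, n = 3 each).

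**Figure D4:**
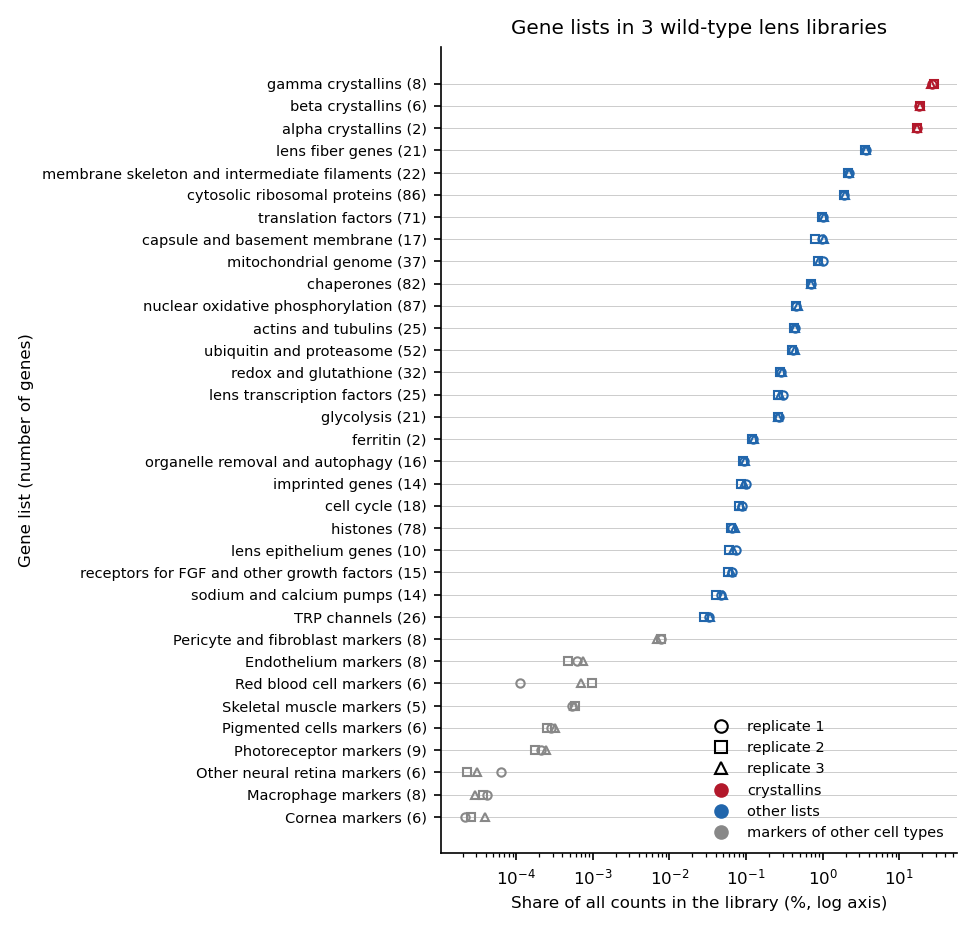
Share of all counted reads (%, log axis) taken by each gene list in the 3 wild-type libraries, with the number of genes in brackets. Symbols mark replicates 1 to 3, and colours mark crystallins, other lists and markers of other cell types. The 3 crystallin classes lie above 16%, lens fiber genes at 3.65% on average, and every list of other cell types at or below 0.00776%.

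The 25 lens transcription factors took 0.742% ± 0.0419 of the non-crystallin reads (SD, n = 3), and 19 reached 5 CPM in every library. *Hsf4*, a heat shock factor active in fibers, and *Maf*, an activator of crystallin genes, were highest at 140 ± 7.21 and 137 ± 14.4 CPM per kilobase. Their replicates were 248, 231 and 256 CPM for *Hsf4* and 1265, 1036 and 1095 CPM for *Maf*. *Foxe3*, a factor of the epithelium, followed with 91.9 ± 15.6 CPM per kilobase, then *Prox1*, which drives fiber elongation, with 59.1 ± 2.82 (SD, n = 3 each). *Atf4* (54.7 CPM per kilobase), *Sox1* (46.6) and *Pitx3* (46.4) formed the next group. Between 5 and 15 CPM per kilobase lay *Mafg* (13.6), *Mab21l1* (13.0), *Six3* (9.81), *Sox2* (8.65), *Hey1* (6.71) and *Pax6* (6.41). *Tfap2a* (4.47 CPM per kilobase), *Gata3* (2.56), *Meis2* (2.29), *Zeb2* (1.88), *Nfe2l2* (1.77), *Eya1* (1.69) and *Mafk* (1.10) were lower. *Meis1* (0.509 CPM per kilobase), *Eya2* (0.176), *Sox11* (0.0255) and *Lhx2* (0.00795) were lowest. *Pax6*, which directs eye development, thus stood below *Maf* and *Prox1* per kilobase in RNA from whole lenses, with 82.3, 69.5 and 73.2 CPM.

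Genes of the lens epithelium took a smaller share of the reads than the fiber list. The list of 10 epithelium genes took 0.178% ± 0.0107 of the non-crystallin reads (SD, n = 3), and all 10 reached 5 CPM in every library. After *Foxe3* and *Mab21l1*, *Cdh1*, which encodes E-cadherin, had 11.3 ± 1.87 CPM per kilobase. *Trpm3*, a cation channel gene of the epithelium, had 244, 208 and 256 CPM, or 9.66 ± 1.04 CPM per kilobase (SD, n = 3). Of the 26 TRP channel genes, 6 reached 5 CPM in every library and 5 had no count in any. After *Trpm3* came *Mcoln1* (3.31 ± 0.193 CPM per kilobase), *Pkd2* (1.90 ± 0.18), *Trpc6* (1.56 ± 0.24), *Trpm7* (1.22 ± 0.123) and *Trpv4* (0.653 ± 0.0623; SD, n = 3 each). TRP channels as a whole took 0.0836% of the non-crystallin reads, most of it *Trpm3*.

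Signaling and ion transport genes were present at modest levels. Among 15 receptors for growth factors, *Fgfr3* led with 33.7 ± 1.66 CPM per kilobase, ahead of *Epha2* (10.1 ± 1.11) and *Bmpr1a* (7.44 ± 0.633; SD, n = 3 each). FGF is the best known inducer of fiber differentiation. Sodium and calcium pumps took 0.121% of the non-crystallin reads, with the sodium pump subunit gene *Atp1b3* (50.9 ± 4.03 CPM per kilobase) highest, and with the calcium pump of the endoplasmic reticulum *Atp2a2* (16.6 ± 1.95; SD, n = 3 each). *Atp2b1* and *Atp2b4*, calcium pumps of the plasma membrane, were lower, at 0.253 and 0.0438 CPM per kilobase.

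Genes of cell division and of organelle loss were both present. The list of 18 cell cycle genes took 0.224% of the non-crystallin reads. *Cdkn1c*, an inhibitor of the cell cycle and an imprinted gene, had 498, 466 and 482 CPM and 236 ± 7.85 CPM per kilobase, far above *Ccnd2* (20.2 ± 2.24), *Ccnd1* (14.4 ± 0.301) and *Pcna* (4.52 ± 0.386; SD, n = 3 each). *Mki67*, a marker of dividing cells, averaged 12.2 CPM. Organelle removal and autophagy genes took 0.247%, led by *Gabarapl1* (80.8 ± 1.72 CPM per kilobase), *Dnase2b* (47.7 ± 1.87), the nuclease that degrades fiber nuclei, and *Bnip3l* (47.6 ± 2.05), a receptor for the removal of mitochondria. *Snrpn* and *Ndn* followed *Cdkn1c* among 14 imprinted genes, which took 0.247% together, with 46.6 and 22.5 CPM per kilobase. Histone genes took 0.178%, with 42 of 78 counted in every library of this poly(A)-selected RNA, and were led by *H2ac19* (80.6 CPM per kilobase), *H2bc4* (69.0) and *H2bu2* (42.2).

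Markers of most other ocular and vascular cells were near 0, with those of pericytes and fibroblasts as the exception. Photoreceptor markers, 9 genes, summed to between 1.77 and 2.44 CPM, and *Rom1* alone averaged 1.37. Pigmented cell markers summed to at most 3.26 CPM, led by *Tyrp1*, and *Rpe65* had no count in any wild-type library. Cornea markers summed to at most 0.392 CPM, and *Krt12*, *Krt14*, *Kera* and *Lum* had no count. Endothelium markers summed to between 4.80 and 7.39 CPM, of which *Tek* made up 5.02 on average, while *Pecam1* and *Cdh5* averaged 0.595 and 0.219. Pericyte and fibroblast markers reached 69.4 to 77.6 CPM, mainly from *Acta2* (59.7 on average) and *Pdgfrb* (10.6), whereas *Col1a1* and *Dcn* averaged 0.112 and 0.0235. Macrophage markers summed to at most 0.411 CPM, led per kilobase by *C1qb*, with no count of *Ptprc*. Other neural retina markers, led by *Rlbp1*, summed to at most 0.639 CPM, and skeletal muscle markers to at most 5.83, of which *Actn3* averaged 4.78. Red blood cell markers varied most, with 1.11, 9.87 and 6.92 CPM in replicates 1 to 3, led per kilobase by *Hba-a2*. The labelled tissue thus held its defining markers, with fiber markers summing to 29600 to 30700 CPM and epithelium markers to 543 to 651.

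Replicates were close to each other at the level of most genes. The median coefficient of variation between the 3 wild-type libraries was 6.90% over 7411 non-crystallin genes by CPM over all genes, and 3.38% over the crystallins. It was 5.19% when the crystallins were left out of the total. Replicate 2 had the highest crystallin share and was the lowest library for 71.1% of the non-crystallin genes by CPM, and for 33.0% after TMM scaling, which matches the bulk of genes between libraries. The extent of this depended on transcript length. Genes with transcripts under 1 kb were lower in replicate 2 than in the mean of the others by a median log2 difference of -0.025, those of 4 to 8 kb by -0.14 and those over 8 kb by -0.21. *Hspg2* (over 8 kb) and the collagen genes named above (4 to 8 kb) are among the long ones. The part of length in their low values in replicate 2 was not tested. Replicate 2 also had less *Xist*, the RNA of the inactive X chromosome, at 38.0 CPM against 190 and 146 in replicates 1 and 3. The Y-linked *Ddx3y* (12.2, 17.4 and 14.0 CPM) and *Eif2s3y* (10.7, 15.0 and 10.1) were highest in replicate 2, although each library was described as having equal numbers of male and female lenses. In *Trpm3*-I/M replicate 3 *Xist* was at 0.073 CPM, against 74.7 to 276 in the other libraries that were not wild-type, which goes against the described mix of sexes in that library. The part of sex balance in other values was not tested. Replicate 3 was highest for 3 abundant noncoding RNAs, *CT010467.1*, *Malat1* (613, 683 and 1028 CPM) and *mt-Rnr2* (299, 320 and 453 CPM).

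A few genes differed widely among the wild-type libraries. *Lgsn*, which encodes the lens protein lengsin, had 73.9, 8.01 and 0.588 CPM, the largest coefficient of variation of any gene averaging at least 5 CPM (147%). In *Trpm3*-KO lenses it was 94.2, 120 and 130 CPM, higher than in every wild-type library. It also varied widely in the other genotypes, with 39.3, 15.2 and 8.46 CPM in *Trpm3*-I/M lenses and 44.5, 11.4 and 14.7 in *Trpm3*-M/M lenses. *Palm*, which encodes the membrane protein paralemmin, had 13.2, 51.3 and 0.160 CPM in wild-type lenses and 111, 111 and 113 CPM in *Trpm3*-KO lenses. In *Trpm3*-I/M lenses *Palm* had 15.3, 14.6 and 60.7 CPM, and in *Trpm3*-M/M lenses 18.1, 31.5 and 17.0. *Cd44*, a receptor for hyaluronan, had 36.4, 30.6 and 7.94 CPM, and *Cd59a*, a complement regulator, had 4.41, 5.36 and 15.9. Replicate 3 was thus the odd one for both *Cd44* and *Cd59a*, low in the former and high in the latter. *Nfkbia*, an inhibitor of NF-kappa B, had 3.95, 3.84 and 9.86 CPM, and was again highest in replicate 3. After TMM scaling the same 10 genes were the most variable.

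The other variable genes were *Xist* and 4 processed pseudogenes, which are retrotransposed copies of mRNAs. *Gm15772*, a copy of the ribosomal protein gene *Rpl26*, had 37.1, 4.10 and 193 CPM, and *Rpl26* had 278, 332 and 106. Their sum was 315, 336 and 299 CPM, with a coefficient of variation of 5.86% against 129% and 49.5% for the single genes. *Gm15459*, a copy of the chaperone gene *Hspa8*, had 221, 144 and 523 CPM, and *Hspa8* had 1061, 1139 and 672. Their sum, 1282, 1284 and 1195 CPM, varied by 4.03%. In both pairs the copy was highest where the parent gene was lowest. *Gm10240* (25.7, 45.1 and 9.51 CPM) and *Gm13370* (23.2, 33.6 and 7.45) likewise share their sequence with other genes. The enolase genes *Eno1* and *Eno1b*, a pair chosen after its values were seen, also differed in opposite directions. *Eno1* had 337, 290 and 207 CPM, *Eno1b* had 119, 118 and 208, and their sum was 456, 408 and 415.

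The most abundant pseudogene, *Gm6166*, was steady among wild-type libraries and far lower in *Trpm3*-KO lenses. It had 1437, 1575 and 1514 CPM in wild-type lenses, and 68.6% of its words also occurred in *Fabp5*, a fatty acid-binding protein gene with 2534, 2636 and 2490 CPM. In *Trpm3*-KO lenses *Gm6166* had 58.7, 62.8 and 54.3 CPM and *Fabp5* 4362, 4307 and 4207. *Gm6166* had 1189, 1042 and 1099 CPM in *Trpm3*-I/M lenses and 1223, 1242 and 1307 in *Trpm3*-M/M lenses, much nearer to wild-type. The sum of the pair was 3971 to 4212 CPM in wild-type and 4262 to 4420 in *Trpm3*-KO libraries. *Rpsa-ps10* and *Rpsa*, also chosen after their values were seen, differed in the same way, with 332, 398 and 455 CPM of the copy in wild-type against 13.6, 13.4 and 13.5 in *Trpm3*-KO lenses. *Rpsa* itself had 432, 401 and 400 CPM in wild-type against 667, 648 and 666 in *Trpm3*-KO lenses. *Rpsa-ps10* averaged 325 CPM in *Trpm3*-I/M lenses, and 362 in *Trpm3*-M/M lenses. How the counting divided reads between such copies was not tested, and levels of genes with near-identical copies are uncertain here.

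**Figure D5:**
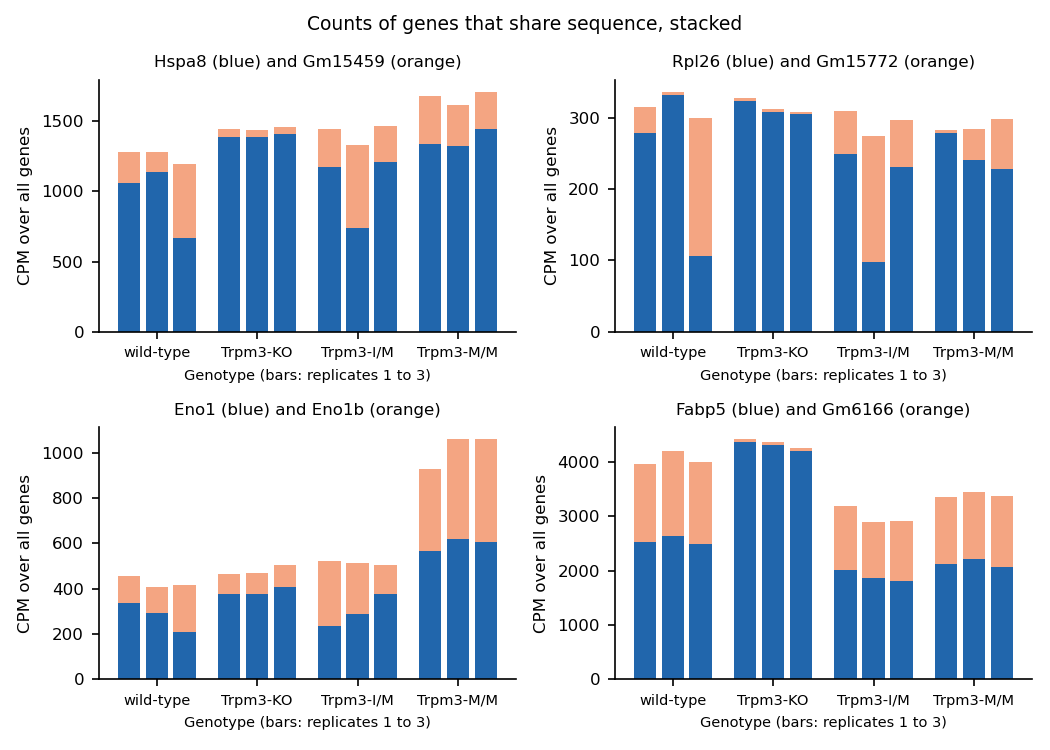
CPM of 4 pairs of genes that share sequence, stacked, in each of the 12 libraries (bars are replicates 1 to 3 of each genotype, and the axis starts at 0). Blue is *Hspa8*, *Rpl26*, *Eno1* or *Fabp5*, and orange its copy. In wild-type lenses the stacks of *Hspa8* with *Gm15459* stay between 1195 and 1284 CPM while *Hspa8* itself ranges from 672 to 1139.

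The wild-type lens was then compared with the other genotypes. Fold changes are of the other genotype over wild-type, from edgeR's quasi-likelihood test on 8984 genes after TMM scaling, with FC ≥ 2 and FDR ≤ 0.05 (Benjamini-Hochberg) for a call. Of all tested genes, 0.568% (51) were called for *Trpm3*-KO lenses, 3.33% (299) for *Trpm3*-I/M lenses and 8.95% (804) for *Trpm3*-M/M lenses. By direction, 0.234% were higher and 0.334% lower in the *Trpm3*-KO, 2.58% higher and 0.746% lower in the heterozygous, and 6.42% higher and 2.53% lower in the homozygous knock-in lenses. The 804 were 577 higher and 227 lower. At FDR ≤ 0.05 without a fold change threshold, 4.36% of all tested genes passed in the *Trpm3*-KO lenses. With scaling by library size only, the *Trpm3*-M/M comparison gave 1277 higher and 77 lower, and the median over the 8984 genes shifted by 0.50 on the log2 scale. For the *Trpm3*-I/M and *Trpm3*-KO comparisons this shift was 0.20 and 0.05. Without *Trpm3*-I/M replicate 3, the library with little *Xist*, the *Trpm3*-I/M count was 307. It was 198 without any one of the *Trpm3*-M/M libraries, with at most 8464 genes then tested. These 198 were 135 higher and 63 lower, against 232 higher and 67 lower with all libraries. The *Trpm3*-M/M count was 611, 527 and 547 without *Trpm3*-M/M replicates 1, 2 and 3 in turn. These were 354 higher and 257 lower, 326 higher and 201 lower, and 346 higher and 201 lower. The higher calls were thus 57.9%, 61.9% and 63.3% of the calls, against 71.8% with all libraries. Because the filter needs 3 libraries, genes that passed it only through *Trpm3*-M/M lenses were not tested in these fits. Values below are relative to the bulk of genes unless said otherwise. All 3 comparisons share the wild-type libraries. Nothing in the sources says how mice were divided among libraries, so p-values measure the spread between these libraries.

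The genes that dominate the wild-type lens were much the same in *Trpm3*-KO lenses. Of the 100 most abundant non-crystallin genes in wild-type, 97 were also in the top 100 of *Trpm3*-KO lenses, 91 in that of *Trpm3*-I/M lenses and 82 in that of *Trpm3*-M/M lenses. In *Trpm3*-KO, 1 of these 100 was called, *Gm6166*, with a log2 fold change of -4.74 (SE 0.089, adjusted p = 9.38e-13 from edgeR), described above. By edgeR and by DESeq2 0 were called in *Trpm3*-I/M, where 52 had an unadjusted p below 0.05 by edgeR, and 8 were higher and 41 lower at FDR ≤ 0.05 without a fold change threshold (49 of 100 against 32.6% of all tested genes). In *Trpm3*-M/M, 11 were called (11.0%), all lower, whereas library size only gave 4 higher and 1 lower. Among the 11 were *Bfsp1*, *Eif5b*, *Lenep*, *Hmox1*, *Plaat3*, *Mgarp*, *Lctl*, *Pgam2* and *Tnrc6b*. *Tnrc6b*, which acts in microRNA silencing, fell from 481 ± 36.8 to 180 ± 35.0 TMM-scaled CPM (SD, n = 3 each), with a log2 fold change of -1.41 (SE 0.15, adjusted p = 2.67e-06). The median log2 fold change of the 100 genes was -0.36 in *Trpm3*-M/M, and 0.15 by library size only, so the direction of the group as a whole depends on the scaling.

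Crystallin genes were not called in *Trpm3*-KO or *Trpm3*-I/M lenses by edgeR (0 of 16 each) or by DESeq2 (0 of 16 each). By edgeR 5 and 14 of them had an unadjusted p below 0.05, and 2 and 13 passed FDR ≤ 0.05 without a fold change threshold. Of all tested genes 4.36% and 32.6% passed the latter. In *Trpm3*-M/M lenses 5 of 16 were called (31.2%, against 8.95% of all tested genes), all gamma crystallins and all lower. Without a fold change threshold 15 of 16 passed FDR ≤ 0.05 there, all lower, against 62.7% of all tested genes in either direction. Among them were 6 of 6 beta crystallins with a median log2 fold change of -0.69. *Crygb* had 42570, 49657 and 42854 TMM-scaled CPM in wild-type against 19902, 16891 and 15432 in *Trpm3*-M/M (log2 fold change -1.37, SE 0.098, adjusted p = 5.54e-08). *Cryga* had 70795, 79128 and 70035 against 35170, 30944 and 31154 (log2 fold change -1.18, SE 0.083, adjusted p = 5.24e-08). *Crygf* fell by 1.23 on the log2 scale (SE 0.11, adjusted p = 4.45e-07), and *Crygc* and *Cryge* were the others called. Groups did not overlap for *Crygb*, *Cryga* or *Crygf*. With library size only, none of the 16 was called, and *Crygb* and *Cryga* had log2 fold changes of -0.86 and -0.67. On that scale the median of the gamma class was -0.56 and that of the beta class -0.18, with 6 of 6 beta genes still lower at FDR ≤ 0.05. The median of the alpha class was 0.17 by library size only and -0.35 after TMM scaling.

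The fiber list was compared next. Of 21 fiber genes, edgeR and DESeq2 each called 0 in *Trpm3*-KO and in *Trpm3*-I/M lenses, where 2 and 15 had an unadjusted p below 0.05 by edgeR. In *Trpm3*-M/M lenses edgeR called 2 (9.52%, near the 8.95% of all tested genes), *Bfsp1* and *Lctl*. Without a fold change threshold 18 of the 21 passed FDR ≤ 0.05 there, 17 of them lower, where 62.7% of all tested genes passed in either direction. The list median was -0.70, or -0.22 by library size only. *Bfsp1* had 11682, 12756 and 11556 TMM-scaled CPM in wild-type against 5837, 4348 and 4263 in *Trpm3*-M/M (log2 fold change -1.32, SE 0.11, adjusted p = 2.24e-07). *Lctl*, a lactase-like protein, fell by 1.10 (SE 0.079, adjusted p = 6.11e-08). By library size only these were -0.81 and -0.59 and not called. The fiber list's share of non-crystallin reads was 9.66% ± 0.275 in wild-type against 9.55% ± 0.207 in *Trpm3*-KO lenses. It was 8.59% ± 0.185 in the *Trpm3*-I/M lenses and 5.91% ± 0.459 in the *Trpm3*-M/M lenses (SD, n = 3 each). The last 2 did not overlap with wild-type (two-sided exact permutation test, p = 0.1 each, the smallest that 3 against 3 allow, adjusted p = 0.167 over 15 pairs).

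Ribosomal protein genes were not called in any comparison by edgeR or DESeq2 (0 of 83 tested, each). By edgeR, 24, 67 and 80 had an unadjusted p below 0.05 in the null, heterozygous and homozygous lenses. In *Trpm3*-M/M lenses 80 of them passed FDR ≤ 0.05 below wild-type without a fold change threshold, against 62.7% of all genes in either direction, with a median log2 fold change of -0.46. By library size only the median was 0.05. Their share of non-crystallin reads was 5.08% ± 0.218 in wild-type and 3.99% ± 0.101 in *Trpm3*-M/M lenses, with no overlap (exact permutation test, p = 0.1, adjusted p = 0.167). The glycolysis share was 0.698% ± 0.0258 in wild-type against 1.17% ± 0.102 in *Trpm3*-M/M, also without overlap (exact permutation test, p = 0.1, adjusted p = 0.167). Of its 18 tested genes 5 were called higher in *Trpm3*-M/M (27.8%, against 6.42% of all tested genes), and 12 were called higher by library size only. The 5 were *Hk1*, *Gpi1*, *Pfkp*, *Aldoa* and *Pgk1*. *Pfkp* had 1.38 TMM-scaled CPM in wild-type and passed the filter on low counts only through *Trpm3*-M/M lenses (17.6), where it was high. *Pgk1*, phosphoglycerate kinase, had 107 ± 7.04 TMM-scaled CPM in wild-type and 315 ± 52.8 in *Trpm3*-M/M (SD, n = 3 each; log2 fold change 1.56, SE 0.10, adjusted p = 2.26e-08). The translation factor share was 2.68% in wild-type and 2.57%, 2.51% and 2.34% in the null, heterozygous and homozygous lenses (exact permutation test, p = 0.1 each, adjusted p = 0.167). The mitochondrial share overlapped with wild-type in every genotype.

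Epithelium genes and lens transcription factors held several calls. *Trpm3* was the only epithelium gene called in *Trpm3*-KO lenses, from 269 ± 17.3 to 95.3 ± 5.01 TMM-scaled CPM (SD, n = 3 each; log2 fold change -1.49, SE 0.06, adjusted p = 3.36e-09). In *Trpm3*-I/M lenses *Gja1*, which encodes connexin 43, fell by 1.33 (SE 0.11, adjusted p = 8.80e-07), and *Sox2* fell by 1.09 (SE 0.09, adjusted p = 1.03e-06). Without wild-type replicate 3 the log2 fold change of *Sox2* was -0.98, and by library size only it was -0.90, with no call in either case. In *Trpm3*-M/M lenses *Foxe3* fell from 90.8 ± 14.0 to 19.2 ± 1.81 TMM-scaled CPM (SD, n = 3 each; log2 fold change -2.24, SE 0.12, adjusted p = 4.57e-09), and *Sox2* fell by 2.19 (SE 0.096, adjusted p = 4.96e-10). *Pdgfra* and *Meis2* were the others called, with -1.03 and -1.14, and with -0.52 and -0.63 and no call by library size only. Without *Trpm3*-M/M replicate 2 *Pdgfra* had -0.97 and was not called.

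Several genes that were scarce in wild-type lenses were called higher in other genotypes. *Atp2b4* and *Col18a1* passed the filter on low counts only through genotypes in which they were high. *Atp2b4* had 0.668, 0.525 and 0.634 TMM-scaled CPM in wild-type against 24.2, 27.8 and 26.8 in *Trpm3*-M/M (log2 fold change 5.42, SE 0.13, adjusted p = 4.99e-12). *Atp1b1* rose from 12.2 ± 1.10 to 87.2 ± 8.51 (SD, n = 3 each; log2 fold change 2.83, SE 0.10, adjusted p = 9.34e-11). *Col18a1*, a capsule collagen, rose from 1.59 ± 0.139 to 46.0 ± 7.04 (log2 fold change 4.85, SE 0.20, adjusted p = 3.04e-10). Among redox genes *Gstm1* fell by 2.66 in *Trpm3*-M/M (SE 0.078, adjusted p = 1.36e-11) and by 1.63 in *Trpm3*-I/M lenses (SE 0.075, adjusted p = 4.48e-09). Among imprinted genes *Igf2* fell by 1.57 in *Trpm3*-KO lenses (SE 0.22, adjusted p = 0.000652), and in wild-type it had 39.0, 20.2 and 43.1 CPM, so that replicate 2 was low.

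Markers of vascular and other cells moved with genotype as well. Endothelium markers summed to 62.6 to 75 CPM in *Trpm3*-M/M and 18.2 to 25.7 in *Trpm3*-I/M lenses, against 4.80 to 7.39 in wild-type, in plain CPM. Pericyte and fibroblast markers summed to 332 to 514 CPM in *Trpm3*-M/M and 102 to 127 in *Trpm3*-I/M, against 69.4 to 77.6 in wild-type. Macrophage markers summed to 11.2 to 22.9 CPM in *Trpm3*-M/M and cornea markers to 4.48 to 8.43. In *Trpm3*-KO lenses the endothelium sum was 5.66 to 6.16 CPM. The part of these cells in the differences from wild-type was not tested.

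Other lists also held calls in *Trpm3*-M/M lenses. Of 22 membrane skeleton and intermediate filament genes 5 were called (22.7%, against 8.95% of all tested genes), with *Bfsp1* among those lower. *Msn*, which encodes the actin linker moesin, rose from 16.3 ± 1.08 to 73.7 ± 4.50 TMM-scaled CPM (SD, n = 3 each; log2 fold change 2.18, SE 0.066, adjusted p = 1.84e-11), and *Tpm1* and *Nes* also rose. Of 61 tested chaperones 5 were called (8.20%, near the 8.95% of all tested genes), all higher, *Hspa1b* and *Hspb8* among them. *Hspa1b* (0.616 TMM-scaled CPM in wild-type against 8.08) and *Hspb8* (2.59 against 9.42) passed the filter on low counts only through genotypes in which they were high. Of 44 tested ubiquitin and proteasome genes edgeR and DESeq2 called 0, with 23 at an unadjusted p below 0.05. Without a fold change threshold 23 of the 44 passed FDR ≤ 0.05, where 62.7% of all tested genes passed. Of 16 organelle removal and autophagy genes 3 were called higher (18.8%, against 6.42% of all tested genes), *Bnip3*, *Map1lc3a* and *Sqstm1*.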

How the data were processed

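Total RNA from whole lenses (RNeasy) was sequenced as poly(A)-selected TruSeq libraries. The deposited values are estimated counts per gene, which the authors made from the reads with bcl2fastq and DRAGEN against mm10, with edgeR and limma also named in the submitters' notes. Of the values, 88.4% were whole. The design had foreseen raw counts, so values were rounded for edgeR. The deposited table held 55774 entries for 55487 identifiers, and repeats of 168 identifiers, all equal, were dropped. A second table of the authors, with CPM, fold changes and p-values, was not used.

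CPM was taken over all genes or over non-crystallin genes (20738494 to 21882964 counts per library). Exon lengths came from GENCODE (GRCm38), and 260 genes had none. Depth was 56162182 to 57481006 in wild-type and 56945063 to 82090262 in the other libraries. Genotypes were compared with edgeR 4.0.16 (R 4.3.3): TMM, quasi-likelihood test, all 12 libraries, CPM of at least 5 in at least 3 libraries, Benjamini-Hochberg adjustment, FC ≥ 2 and FDR ≤ 0.05. DESeq2 1.42.0, other scalings, filters and lengths, a replicate block and leaving out each library were alternatives. The test was tested on simulated data. Each SE of a log2 fold change was its absolute value divided by the square root of edgeR's F statistic. List shares were compared by exact permutation (scipy 1.17.1). Named were all crystallins, the leading genes overall and per list, every listed transcription factor, the 10 most variable genes, and up to 3 rises and 3 falls per list and comparison. Some of these are given only by range or count, and some are not reported here. The members and lists were chosen with earlier results of these data known.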

Additional observations from a re-analysis of the deposited data

How the results depend on the processing

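In wild-type lenses the crystallin share was 81.0% per kilobase, and 18638 genes were expressed when 1 count sufficed. Per kilobase, 170.7 genes on average took 50% of the non-crystallin counts. The median coefficient of variation was 5.19% over non-crystallin totals, 5.20% with TMM, 7.96% at a CPM of at least 1 and 4.45% to 6.43% when 1 library was left out. The ribosomal protein share was 5.34% of protein-coding and 8.83% of per-kilobase counts, the fiber share 10.2% and 10%, and the mitochondrial share 6.96% per kilobase. *Cryaa* ranked 1 by longest transcript. Calls in *Trpm3*-KO were 103 at a CPM of at least 1, 343 with no filter and 392 with no fold change threshold. The same settings gave 663, 1215 and 2929 in *Trpm3*-I/M and 1634, 3455 and 5637 in *Trpm3*-M/M, where library size only gave 1354. Leaving out 1 library gave 36 to 56, 198 to 307 and 527 to 831 calls. The fiber share of *Trpm3*-KO minus wild-type turned from -0.104 to 0.111 percentage points per kilobase. The cause was not tested. Each named gene change and each list share difference was set against its value under every alternative setting. Of these comparisons 1141 were the same, 17 lost the call and 1 reversed. For list shares, which were never called, the same means only the same sign. DESeq2 gave 54, 303 and 804 calls. With the replicate number as a block, calls were 51, 300 and 806. Same-numbered libraries deviated with correlations of -0.26 to 0.21. With no reference for such values, they cannot show whether the numbers pair the samples.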

Other observations

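Protein-coding genes took 98.1% ± 0.184 of all counts in wild-type lenses, and processed pseudogenes 0.721% ± 0.0458 (SD, n = 3 each). Long intergenic RNAs took 0.214% ± 0.0262, led by *Malat1*. Antisense RNAs took 0.0813% ± 0.00452, led by *Prox1os* with 110, 107 and 117 CPM, a transcript next to the fiber regulator *Prox1*. Without strand information for the counting, reads of antisense genes and their partners cannot be told apart here.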
